A study of Lithobates pipiens with 72 samples.

Results

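The transcripts described here are the keratins, desmosome proteins, cell envelope proteins and uroplakins of leopard frog (Rana pipiens) tadpole skin and other epithelia. They were chosen by name. A transcript was a member if the protein name attached to it contained keratin, desmoplakin, desmoglein, desmocollin, plakophilin, plakoglobin, cornifelin, uroplakin, envoplakin, periplakin or transglutaminase. This gave 31 members among 19128 transcripts. By role they were 6 type II keratins, 7 type I keratins, 2 keratins of unstated type, 6 desmosome transcripts, 4 cornifelin or periplakin transcripts, 4 uroplakins and 2 proteins that only carry keratin in their names (keratinocyte associated protein 3 and trichoplein). No name contained desmocollin, envoplakin or transglutaminase. The names are those of the closest protein match, nearly always from Xenopus, and the weakest member match had an E-value of 1.02e-29, so the name gives the family more surely than the exact gene.

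Keratins are the intermediate filament proteins of epithelia. A type I and a type II keratin pair to build each filament, and different pairs mark different layers: keratin 5 belongs to the basal layer of stratified epidermis, whereas keratins 8, 18 and 19 also occur in simple epithelia such as gut and in larval skin. Desmosomes are cell junctions that tie the filaments of neighbouring cells together. Desmogleins span the membrane, plakoglobin and plakophilins bind their tails, and desmoplakin links these to keratin. Periplakin is a plakin that links keratin filaments to the cell edge and, in mammals, is built into the cornified envelope, where cornifelin is also found. Uroplakins are membrane proteins of the mammalian bladder surface and are known from several Xenopus epithelia.

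The study exposed tadpoles for 96 h to 1 of 4 energetic materials in water. TNT (trinitrotoluene) was given at 3 doses, 1.5 and 2.3 and at most 3.4 mg/L, nitroguanidine (NQ) at 30, 150, 750 and 3750 mg/L, its methylated relative MeNQ at 34, 170, 851 and 4225 mg/L, and the explosive formulation IMX-101 at 10, 20 and 40 mg/L. Each exposure had its own control beakers in dechlorinated tap water, with 4 libraries in each of 18 groups and 72 in all. All animals came from a commercial supplier and were 7 to 10 days old at the start, and the labels name no mutant or transgenic line. A library is the pooled RNA of up to 5 whole tadpoles from 1 beaker (animals with degraded RNA were left out of the pool), so p-values measure the spread between beakers. Doses are nominal. TNT was coated onto the vessel from acetone that was then evaporated, and IMX-101 solutions were brought to pH 7.5 with NaOH. The NQ and MeNQ series were matched in molar terms at 0.3, 1.4, 7.2 and 36 mmol/L. The written design exchanges the second NQ and MeNQ doses and gives the top MeNQ dose slightly differently, and the doses used here are those of the sample labels.

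Libraries held 1674617 to 21656267 counts, with a median of 10785949. TNT control A was the shallowest. In IMX-101 the control and 10 mg/L libraries were sequenced in one set of runs and the 20 and 40 mg/L libraries in another. In that exposure the run set therefore cannot be told apart from the upper doses against control or from the dose slope. Levels below are CPM, a library's counts scaled to a common total, and are not divided by transcript length, so they compare libraries, not genes.

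Of the 31 members, 26 had enough counts to be tested, the same 26 in every exposure. The 5 that did not pass the low-count filter were keratinocyte associated protein 3, desmoplakin X1, plakophilin-4 X2, keratin 14-like and the XENCK55 keratin. Keratin 14-like, named for the usual type I partner of keratin 5, reached at most 0.906 CPM in any library. Desmoplakin X1 had 29 counts in all, every one in NQ 30 mg/L library B. The 3 most abundant rows held 70.9% of the member counts, keratin 5 with 27.1%, the transcript similar to keratin 19 with 22.4% and keratin 18-A with 21.4%. In CPM terms the 31 members made up 0.515% of the scaled total of control libraries in the TNT experiment. The values were 0.465% in MeNQ, 0.431% in NQ and 0.337% in IMX-101, each a mean over 4 libraries. These are scaled levels rather than shares of raw counts.

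The tissue label was whole tadpole, and defining markers of basal epidermis other than the members were present at modest levels. Tumor protein 63 isoform X2, the master regulator of stratified epithelium, had a median of 10.6 CPM over all libraries and a range from 0 to 27.5. Its rows named isoform X5 and L homeolog isoform X4 had medians of 3.16 and 1.14 CPM. The integrin beta-4-like X1 row was at 0 in all 72 libraries and the X2 row reached at most 1.75 CPM. Because whole animals were extracted, fewer cells of a type and less RNA per cell cannot be told apart in any result below.

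Under TNT a handful of the members fell and none rose. At 3.4 mg/L, 5 of the 26 tested transcripts fell and 0 rose: keratin 5, a second type II keratin, periplakin, uroplakin-2-like and uroplakin III (edgeR quasi-likelihood test, Benjamini-Hochberg adjusted p under 0.05 over all transcripts tested). Over all 12648 transcripts tested in this exposure 5.61% fell and 6.37% rose at that dose. The members' median log2 fold change was -0.14 beside 0.06 for all transcripts, and 17 of the 26 were below 0. In 7 members all 4 exposed libraries lay below all 4 controls and in 0 above, beside 7.52% and 9.76% of all transcripts. At 2.3 mg/L 3 members fell and 0 rose, where 2.34% of all transcripts fell. Over the dose steps 6 members fell, where 5.40% of all transcripts did. At 1.5 mg/L none passed the test in edgeR, where 2.76% of all transcripts changed, and 1 (periplakin) passed in DESeq2. At an unadjusted p under 0.05 in edgeR there were 2 members, beside 1654 of all 12648 transcripts.

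**Figure D1:**
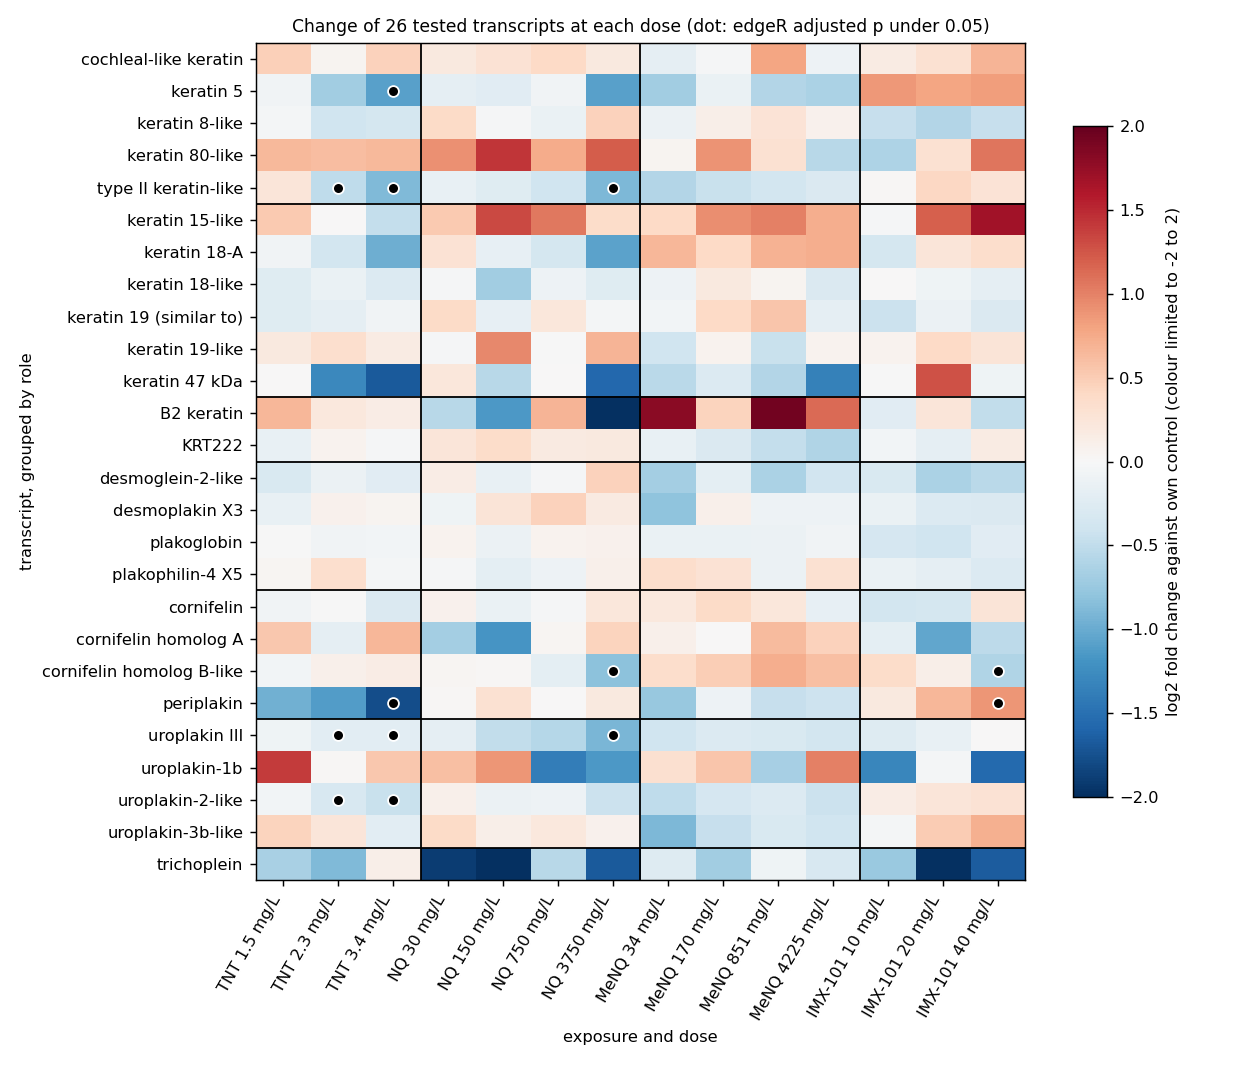
Log2 fold change against the own control (colour, limited to -2 to 2) of the 26 tested transcripts, grouped by role (rows), at each of the 14 doses (columns). Black dots mark an edgeR adjusted p under 0.05; dots at TNT 3.4 mg/L lie on 5 rows, all blue, and no dot lies in the MeNQ columns or on a desmosome row.

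Keratin 5 (Rana_pipiens_Transcript_462703) was named for a type II keratin of the basal layer. It measured 1042, 1465, 895 and 1631 CPM in TNT control libraries A to D. At 3.4 mg/L the libraries measured 725, 380.4, 441 and 809.5 CPM. Every exposed library lay below every control library. The mean went from 1258 ± 347 to 589 ± 210.1 CPM (SD, n = 4), a log2 fold change of -1.09 ± 0.27 (SE; 95% interval -1.66 to -0.51; edgeR adjusted p = 0.0146). The call rested on the exact set of libraries: without 3.4 mg/L library C the edgeR adjusted p was 0.0555, and with the sequencing lane as a term it was 0.0543. The call was also lost in a fit on only the 8 libraries compared. At 2.3 mg/L the 4 libraries held 1017, 670.2, 897 and 524.5 CPM, which overlapped the controls, and the change of -0.70 ± 0.27 did not pass (edgeR adjusted p = 0.182). The fall over the dose steps passed, at -0.39 ± 0.08 log2 per step (edgeR adjusted p = 0.00523).

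A second type II keratin (Rana_pipiens_Transcript_494451), whose match carries no keratin number, showed the clearest separation. Its control libraries held 83.1, 80.85, 71.35 and 61.5 CPM. The 1.5 mg/L libraries held 83.05, 94.0, 97.1 and 75.8 CPM, overlapping the controls. The 2.3 mg/L libraries held 56.4, 46.55, 56.8 and 48.5 CPM, and those at 3.4 mg/L held 44.99, 34.8, 36.6 and 44.5 CPM. Both upper doses lay wholly below the controls. The change was -0.51 ± 0.13 at 2.3 mg/L (edgeR adjusted p = 0.0306) and -0.88 ± 0.13 at 3.4 mg/L (edgeR adjusted p = 0.000335), the latter 0.545 times the control level. Leaving out any single library of the groups compared left the 3.4 mg/L call in place, whereas the 2.3 mg/L call was lost in 5 of 8 such fits (those without control A or B or 2.3 mg/L B, C or D), with an edgeR adjusted p of up to 0.0835.

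Among the type I keratins none passed at a single TNT dose in the edgeR model of all TNT libraries, but 2 passed at 3.4 mg/L in other fits. Keratin 18-A, a keratin of simple epithelia, held 1658, 889, 920.3 and 1516 CPM in the controls and 674, 502, 733 and 622 CPM at 3.4 mg/L. The 2 groups did not overlap, yet the change of -0.98 ± 0.35 did not pass (95% interval -1.72 to -0.24; edgeR adjusted p = 0.0904). It did pass in DESeq2 (adjusted p = 0.025), and in edgeR with the replicate block (adjusted p = 0.0442) or on the 8 libraries alone (adjusted p = 0.0396). In edgeR it did not pass with DESeq2 size factors, the mean of runs or the lane term. Nor did it without the low-count filter or with counts summed by protein name. The keratin called 47 kDa after its Xenopus match held 208, 139, 185 and 208 CPM in the controls. Its 2.3 mg/L libraries held 201.2, 43.1, 14.2 and 44.6 CPM, with library A at the control level and the others far under it. At 3.4 mg/L they held 71.5, 53.4, 23.3 and 81.2 CPM, all below the controls, with a change of -1.68 ± 0.60 (edgeR adjusted p = 0.0951). In the same 3 other fits its adjusted p was 0.0219 (DESeq2), 0.0331 (edgeR, replicate block) and 0.0233 (edgeR, 8 libraries). It too did not pass in the fits listed above as not passing for keratin 18-A. Its slope over the dose steps passed (-0.65 ± 0.19 per step; edgeR adjusted p = 0.0394), but was lost in 10 of 16 fits that left out a library, with an edgeR adjusted p of up to 0.0960. It held without control B, 1.5 mg/L A, C or D, or 2.3 mg/L A or C. This row and the B2 keratin row carry neighbouring transcript numbers, and its level fell to 0 or nearly 0 in single libraries of other groups. B2 keratin reached at most 9.86 CPM in any library, and keratin 47 kDa at most 236 CPM. Whether reads were divided between rows of one gene was not tested. The transcript similar to keratin 19 held 1319 to 1514 CPM in the controls and 1231 to 1511 CPM at 3.4 mg/L. These ranges overlapped almost wholly, and its change of -0.06 had a 95% interval of -0.26 to 0.13.

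Periplakin (Rana_pipiens_Transcript_294609), the plakin that ties keratin to the cell edge, had the largest called change of any member at a single TNT dose. Its control libraries held 128.0, 189, 104.5 and 128 CPM. At 1.5 mg/L they held 96.7, 86.9, 48.45 and 49.8 CPM, and at 2.3 mg/L 52.2, 58.15, 73.7 and 69.0 CPM. At 3.4 mg/L they held 49.7, 39.2, 19.7 and 52.3 CPM. All 3 doses lay wholly below the controls. The change at 3.4 mg/L was -1.77 ± 0.31 (95% interval -2.44 to -1.09; edgeR adjusted p = 0.0016), or 0.294 times the control level. The changes of -0.96 ± 0.31 at 1.5 mg/L and -1.12 ± 0.31 at 2.3 mg/L did not pass (edgeR adjusted p = 0.146 and 0.0503). The 2.3 mg/L change passed in 5 other fits, with adjusted p-values from 0.00679 (DESeq2) to 0.0481 (edgeR with DESeq2 size factors). It did not pass without the low-count filter, with the replicate block or with the sequencing lane as a term. The slope was -0.55 ± 0.10 per dose step (edgeR adjusted p = 0.00101). The 3 cornifelin transcripts changed by -0.29, 0.67 and 0.16 at 3.4 mg/L, and none passed.

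Uroplakin-2-like and uroplakin III fell slightly. Uroplakin-2-like (Rana_pipiens_Transcript_482942) held 269, 269.6, 274.5 and 275 CPM in the controls and 223, 206, 168 and 198.5 CPM at 3.4 mg/L. The control libraries were nearly equal and all 4 exposed libraries lay under them, with a change of -0.44 ± 0.09 (edgeR adjusted p = 0.00332). Uroplakin III (Rana_pipiens_Transcript_416770) held 156.5, 179, 178 and 172 CPM in the controls and 153, 149, 141 and 148 CPM at 3.4 mg/L. Its ranges were separated by a few CPM only. The change of -0.21 ± 0.06 passed (edgeR adjusted p = 0.0253), but not in 4 of 8 fits that left out a library, those without control B, control C, 3.4 mg/L B or 3.4 mg/L C (edgeR adjusted p = 0.0534, 0.0501, 0.0646 and 0.0889). At 2.3 mg/L uroplakin-2-like fell by 0.32 and uroplakin III fell by 0.21 on the log2 scale (edgeR adjusted p = 0.0479 for each), and these calls were lost in 6 and 7 of 8 such fits. The first held only without 2.3 mg/L A or B and the second only without control A.

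**Figure D2:**
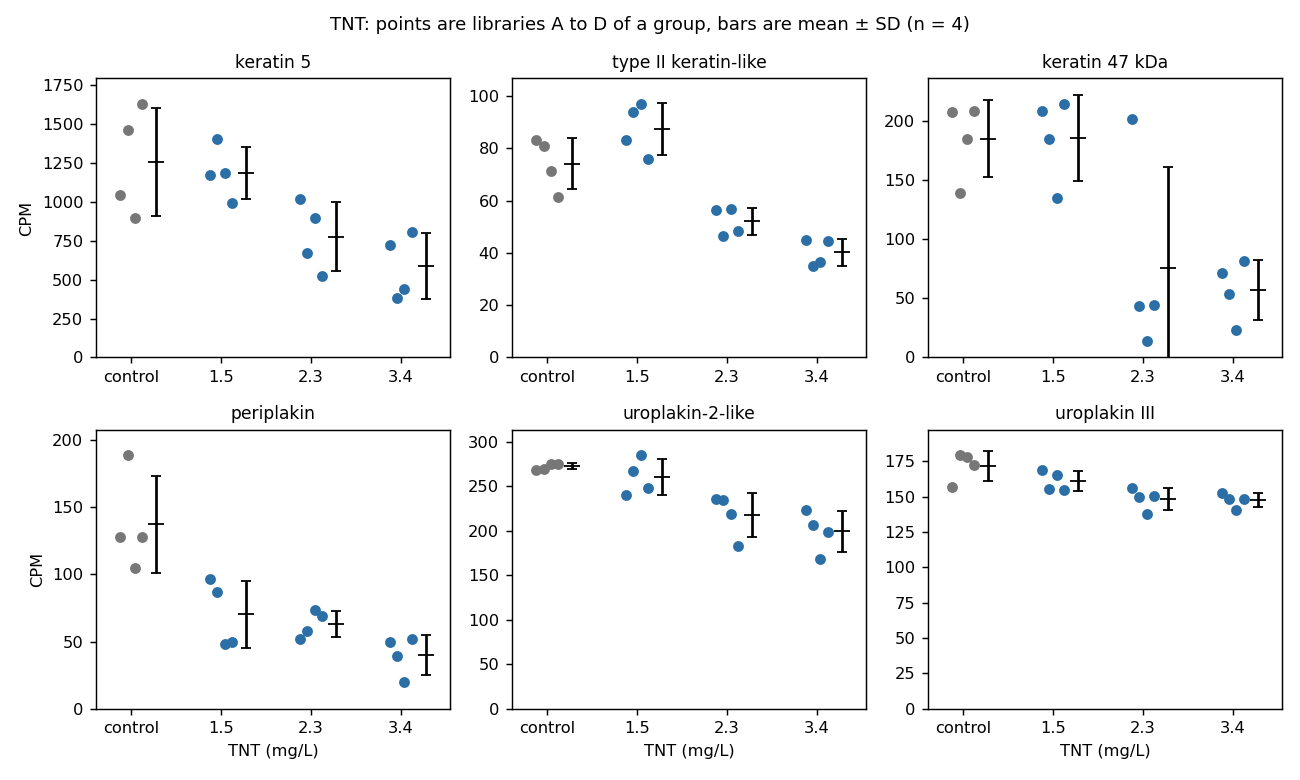
CPM (vertical axis, from 0) of 6 transcripts in each TNT group (horizontal axis, mg/L); points are libraries A to D and the bar beside them is the mean ± SD (n = 4; a lower bar that would pass 0 is cut at the axis). Periplakin is below its controls at all 3 doses, while the type II keratin-like transcript is at the control level at 1.5 mg/L and below it at 2.3 and 3.4 mg/L.

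Summed over all 31 members, the level was 5151 ± 488 CPM in the TNT controls and 3431 ± 235 CPM at 3.4 mg/L (SD, n = 4). The libraries ranged from 4539 to 5723 in the controls and from 3111 to 3651 at 3.4 mg/L, without overlap. The 3 most abundant rows held 70.9% of the member counts over all libraries, so this total mostly follows those rows. The type II keratins summed to 1019 to 1729 CPM in the controls and to 451 to 884 CPM at 3.4 mg/L. The type I keratins summed to 2594 to 3309 and 1995 to 2321 CPM, and the cornifelins and periplakin to 215.0 to 286 and 119 to 164 CPM. The desmosome sum was 88.2 to 148.0 CPM in the controls and 111 to 141.0 CPM at 3.4 mg/L, inside the control range. The low end of that range was control A alone, where desmoplakin X3 was at 0. Controls B, C and D held 128.2, 136.3 and 148.0 CPM, and the 3.4 mg/L libraries held 141.0, 125.3, 110.8 and 110.6 CPM.

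Markers of other cell types moved in the same libraries. Of 5 tested gut epithelium markers 4 fell at 3.4 mg/L, and the 6 rows of that list summed to 6315 to 9218 CPM in the controls and 2756 to 4551 CPM at 3.4 mg/L. Of 9 tested markers listed for mucus-secreting skin cells 4 fell: a mucin-2-like, a mucin-5AC-like and an otogelin-like row and anterior gradient protein 2-B. That list summed to 671 to 944 CPM in the controls and 405 to 535 CPM at 3.4 mg/L. Whole animals were extracted, so the tissue of these transcripts cannot be told. None of the 5 tested basal epidermis markers outside the members passed, and their rows summed to 33.3 to 55.1 CPM in the controls and 48.2 to 65.6 CPM at 3.4 mg/L. Collagen XVII, which anchors basal cells to the basement membrane, changed by -0.999 ± 0.49 (edgeR adjusted p = 0.25), while integrin alpha-6, its neighbour in the hemidesmosome, changed by 1.83 (edgeR adjusted p = 0.118). Aminopeptidase N, a defining gut marker, was at 0 in every library. Of 6 skeletal muscle markers 2 fell, myosin heavy chain 13 by 1.74 and myosin heavy chain 2 by 0.85 on the log2 scale, while the list summed to 5770 to 7176 CPM in the controls and 5936 to 6542 CPM at 3.4 mg/L. Of 3 liver markers transthyretin fell by 2.25, and fibrinogen gamma rose by 2.37 from a low level of 0.531 to 2.76 CPM. Fibrinogen beta, at 1827 CPM in the controls and 1733 CPM at 3.4 mg/L, changed by -0.07 (edgeR adjusted p = 0.882). The 3 rows summed to 1850 to 2942 CPM in the controls and 1566 to 2141 CPM at 3.4 mg/L. Of 2 tested skin ionocyte rows, both named FoxI1, FoxI1-ema rose by 0.72 (edgeR adjusted p = 0.00516). The other, FoxI1c, changed by -0.86 from a low level of 2.55 to 1.40 CPM (edgeR adjusted p = 0.244). That list summed to 26.75 to 37.8 CPM in the controls and 35.9 to 62.2 CPM at 3.4 mg/L. The part of any of these cells in the keratin result was not tested.

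A wider list of epidermal genes (cell adhesion, basement membrane attachment, barrier lipids and epidermal regulators) held 31 rows, of which 21 were tested under TNT. The only barrier lipid row, named for a very long chain fatty acid elongation protein, was at 0 in every library and was not tested. At 3.4 mg/L 1 of them fell and 0 rose. It was a prostasin-like protease, of the family that cleaves channels and barrier proteins at the skin surface, with a log2 fold change of -2.80 ± 0.43 (edgeR adjusted p = 5.46e-04) from a low level of 2.7 to 0.374 CPM. The list's median change was 0.12, beside 0.06 for all transcripts.

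NQ changed few transcripts until its top dose. At 30 and 750 mg/L no transcript of 12969 passed in edgeR, although 1057 and 875 had an unadjusted p under 0.05. At 150 mg/L 2 passed (0.0154%), neither a member. At an unadjusted p under 0.05 there were 0, 3 and 2 members at 30, 150 and 750 mg/L, and DESeq2 called none. Over all transcripts 979 had an unadjusted p under 0.05 at 150 mg/L. At 3750 mg/L 3 members fell and 0 rose, against 3.09% of all transcripts that fell and 1.39% that rose. The members' median log2 fold change was 0.09 beside 0.02 over all transcripts. Over the dose steps 2 members fell, where 0.840% of all transcripts did. Of the 3 at the top dose, 2, the type II keratin-like transcript and uroplakin III, were also among those that fell at TNT 3.4 mg/L, an experiment with its own controls. The share of all transcripts that fell in both is not given here, so this overlap cannot be read as particular to the members.

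The type II keratin-like transcript held 223, 244, 157 and 190.4 CPM in NQ control libraries A to D and 96.2, 129, 107 and 109.6 CPM at 3750 mg/L. All exposed libraries lay below all controls, and the mean went from 203.5 ± 38.2 to 110.4 ± 13.5 CPM (SD, n = 4). The change was -0.90 ± 0.15 (95% interval -1.22 to -0.57; edgeR adjusted p = 0.0038), or 0.537 times the control. The group means in between were 185, 173 and 155.0 CPM at 30, 150 and 750 mg/L, and the slope of -0.20 ± 0.04 per dose step passed (edgeR adjusted p = 0.0128).

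Uroplakin III held 192, 312, 192.0 and 204 CPM in the NQ controls and 115, 151.0, 96.9 and 118 CPM at 3750 mg/L. Control B stood well above the other controls, and without it the exposed libraries were still the lower ones. The change was -0.92 ± 0.19 (95% interval -1.32 to -0.51; edgeR adjusted p = 0.0117) and held when any single library of the pair was left out, whereas a fit on these 8 libraries alone gave an edgeR adjusted p of 0.0746. Its slope was -0.22 ± 0.04 per dose step (edgeR adjusted p = 0.0128). Cornifelin homolog B-like (Rana_pipiens_Transcript_358047), related to a cornified envelope protein of mammals, held 61.2, 55.2, 80.2 and 47.1 CPM in the controls and 33.8, 27.3, 39.9 and 38.4 CPM at 3750 mg/L. The groups did not overlap and the change was -0.82 ± 0.18 (edgeR adjusted p = 0.0173). It was lost without control C, 3750 mg/L A or 3750 mg/L B (edgeR adjusted p = 0.0693, 0.0616 and 0.0548). The call was also lost in a fit on only the 8 libraries compared.

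Keratin 5 held 1678, 1662, 881 and 1385 CPM in the NQ controls and 885, 969.6, 409 and 406 CPM at 3750 mg/L. Control C lay inside the exposed range, and the change of -1.08 ± 0.32 did not pass in edgeR (95% interval -1.75 to -0.42; adjusted p = 0.0635) but did in DESeq2 (adjusted p = 0.0124). Uroplakin-2-like lay wholly below its controls, at 193 to 252 CPM beside 257 to 320.1 CPM, with a change of -0.43 ± 0.13 (edgeR adjusted p = 0.0737; DESeq2 adjusted p = 0.0255). On the other side, keratin 8-like, the simple-epithelium type II keratin, held 28.6 to 43.4 CPM in the controls and 45.3 to 59.1 CPM at 3750 mg/L. It lay wholly above its controls without passing (0.46 ± 0.19; edgeR adjusted p = 0.222). In all, 5 members lay wholly below and 2 wholly above their controls, beside 6.09% and 5.32% of all transcripts. Periplakin, the member with the largest called change at a single TNT dose, changed by 0.19 under NQ 3750 mg/L, with a 95% interval of -0.40 to 0.77.

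At NQ 3750 mg/L the 31 members summed to 2539 to 3480 CPM, below the 3606 to 4896 CPM of the controls. Keratin 5, which did not pass, averaged 1401 CPM in the controls and 667 CPM at 3750 mg/L. Of the 26 tested members 12 were below 0 and 14 above, so the sum does not describe most members. In the same libraries 1 of 5 tested gut markers fell and that list summed to 4649 to 8507 CPM beside 6980 to 9703 CPM in the controls. Of 11 tested markers listed for secretory cells of skin 3 fell: mucin-2, a mucin-2-like row and anterior gradient protein 2-B. The list summed to 1061 to 1122 CPM beside 1503 to 3145 CPM in the controls. Anterior gradient protein 2-B alone averaged 1868 CPM in the controls and 852 CPM at 3750 mg/L. The tested otogelin-like rows changed by 0.63, 0.17 and 0.12 and did not pass. Whole animals were extracted, so the tissue of these transcripts cannot be told. None of the 5 tested basal markers outside the members passed, and their sums were 91.1 to 179.5 beside 98.3 to 246 CPM. Of 3 liver markers fibrinogen beta rose by 0.98, with list sums of 6299 to 13380 beside 3649 to 6593 CPM. None of 6 muscle or 2 tested ionocyte markers passed. Their part in the result was not tested. Among the 21 tested genes of the wider epidermal list none passed at this dose.

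MeNQ, the same nitroguanidine core with an added methyl group, gave no called change of any member at any of its 4 doses or over the dose steps in edgeR. At an unadjusted p under 0.05 there were 6, 4, 5 and 5 members at 34, 170, 851 and 4225 mg/L, and 2 over the dose steps. Over all 13496 transcripts the counts at that threshold were 652, 1294, 1598 and 1352, and 1107 over the dose steps. DESeq2 called 1 member, cornifelin homolog B-like at 851 mg/L (adjusted p = 0.0381), and none at the other doses. All transcripts gave few calls too: 0, 0.156%, 0.437% and 0.393% of 13496 from the lowest to the highest dose, and 0.0889% over the dose steps. The type II keratin-like transcript averaged 220 ± 21.2 CPM in the MeNQ controls and 178.5 ± 43.2 CPM at 4225 mg/L (SD, n = 4), with overlapping libraries and a change of -0.29 ± 0.17 (95% interval -0.66 to 0.07). Uroplakin III and uroplakin-2-like lay wholly below their controls at 4225 mg/L, with changes of -0.37 ± 0.16 and -0.43 ± 0.14 that did not pass (edgeR adjusted p = 0.415 and 0.228). KRT222, a keratin-like protein, was also wholly below (-0.60 ± 0.21; edgeR adjusted p = 0.301). These were the 3 members wholly below their controls at that dose, and 1 was wholly above, beside 3.31% and 2.66% of all transcripts. The uroplakins summed to 602.6 to 737.8 CPM in the controls and to 410.7 to 565.2 CPM at 4225 mg/L. At 34, 170 and 851 mg/L their sums were 391.5 to 531.7, 470.0 to 598.4 and 413.5 to 613.8 CPM. The lower sums were thus not confined to the top dose. At 4225 mg/L no tested gut, secretory, basal, muscle, liver or ionocyte marker passed in edgeR. The gut list summed to 4150 to 5368 CPM beside 5512 to 7960 CPM in the controls. The secretory list summed to 1018 to 1518 beside 1792 to 2509 CPM. Parvalbumin and troponin T rose at 851 mg/L, by 1.16 and 0.58. On the wider epidermal list plectin-like fell at 170 and 851 mg/L (-0.88 and -0.76), and Krueppel-like factor 4 X1 at 851 mg/L (-2.02). Their part was not tested.

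Cornifelin homolog B-like went the other way from NQ. Its MeNQ control libraries held 37.45, 46.8, 44.8 and 39.7 CPM. At 4225 mg/L they held 95.3, 50.9, 48.8 and 58.35 CPM, with library A far above the rest. The 4 group means of 53.6, 59.3, 69.55 and 63.35 CPM from low to high dose all exceeded the control mean of 42.2 CPM, and at each dose every library lay above every control. No single dose passed, the change at the top dose being 0.59 ± 0.22 (edgeR adjusted p = 0.332).

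The matched molar doses allow MeNQ and NQ to be compared directly, as the MeNQ change minus the NQ change, each against its own control. The 26 tested members were compared at 4 molar doses, with p-values adjusted over the 14068 transcripts of this model at each dose. At 36 mmol/L 1 member passed, with a higher value for MeNQ, as did 0.327% of all transcripts. It was cornifelin homolog B-like, with a difference of 1.40 ± 0.29 log2 (95% interval 0.81 to 1.98; edgeR adjusted p = 0.0151), made up of the fall under NQ and the higher level under MeNQ. Leaving out any single library of these groups kept it between 1.14 and 1.50 (highest edgeR adjusted p = 0.0467). At 0.3, 1.4 and 7.2 mmol/L no member passed in this edgeR model, where 0.0213%, 0.128% and 0.114% of all transcripts were called. At an unadjusted p under 0.05 there were 3 members at each dose, beside 1093, 1353 and 1200 of all 14068 transcripts. The differences of cornifelin homolog B-like at these doses were 0.29, 0.47 and 0.91.

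The 2 members that fell under NQ but not under MeNQ were not shown to differ between the compounds. The difference at 36 mmol/L was 0.58 for the type II keratin-like transcript (95% interval 0.10 to 1.06; edgeR adjusted p = 0.274) and 0.52 for uroplakin III (95% interval 0.01 to 1.04; edgeR adjusted p = 0.389). For keratin 5 it was 0.42 (95% interval -0.54 to 1.38) and for uroplakin-2-like -0.02 (95% interval -0.41 to 0.37), so a difference of either sign and moderate size fits within these intervals. Keratin 18-A had the widest gap among the type I keratins, 1.77 with a 95% interval of 0.49 to 3.05 (edgeR adjusted p = 0.200). Its libraries were scattered: 312 to 946 CPM in the NQ controls, 135.5 to 505 at NQ 3750 mg/L, 371 to 1298 in the MeNQ controls and 836 to 1615 at MeNQ 4225 mg/L.

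**Figure D3:**
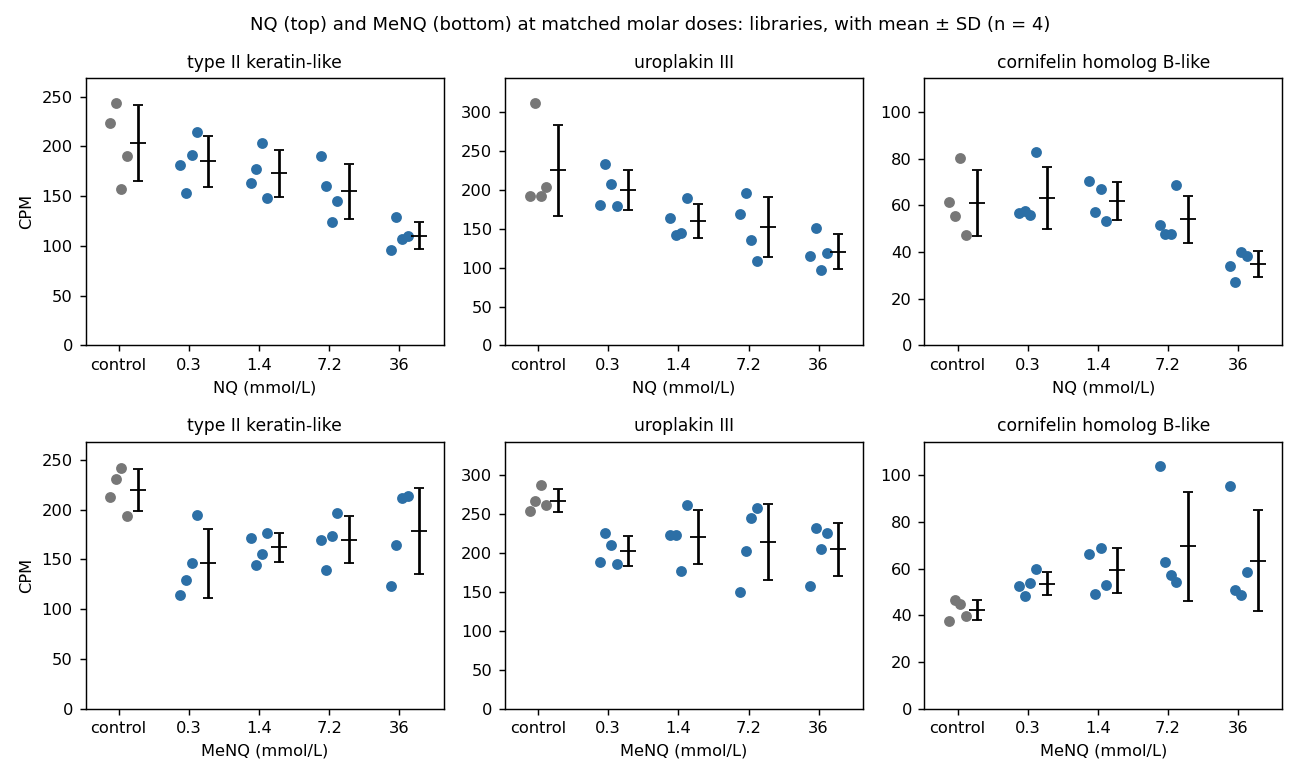
CPM (vertical axis, from 0, same scale for a transcript in both rows) of 3 transcripts under NQ (top) and MeNQ (bottom) by molar dose (horizontal axis, mmol/L); points are libraries, bars mean ± SD (n = 4). At 36 mmol/L cornifelin homolog B-like is below its controls under NQ (27.3 to 39.9 CPM) and above them under MeNQ (48.8 to 95.3 CPM).

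Under IMX-101, a melt-cast formulation that contains NQ together with other energetic compounds, 1 member rose and 1 fell at 40 mg/L, beside 3.84% and 3.68% of all 12542 transcripts tested. Wholly above the controls were 4 members and wholly below 1, beside 5.75% and 8.15% of all transcripts. At 10 and 20 mg/L no member passed in edgeR, where 0.989% and 5.21% of all transcripts were called. At an unadjusted p under 0.05 there were 6 and 7 members, beside 1250 and 2368 of all 12542 transcripts. DESeq2 called 1 and 2 members there, without its share over all transcripts to set beside them. The member that fell at 40 mg/L was again cornifelin homolog B-like. It held 42.4, 47.8, 49.1 and 55.1 CPM in the controls, 70.4, 65.1, 66.0 and 49.2 CPM at 10 mg/L, 53.7, 50.7, 58.5 and 43.7 CPM at 20 mg/L, and 33.3, 32.7, 26.8 and 34.1 CPM at 40 mg/L. Only the 40 mg/L libraries were all below the controls, by -0.59 ± 0.13 (95% interval -0.87 to -0.32; edgeR adjusted p = 0.0119). Against 20 mg/L, sequenced in the same run set, it was lower by -0.71 ± 0.13 (edgeR adjusted p = 0.0381), and it was the only member called in that comparison, where 0.191% of all transcripts were lower.

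Periplakin was the member that rose. It held 70.4, 85.8, 69.6 and 70.7 CPM in the controls and 158, 109.6, 182 and 90.3 CPM at 40 mg/L, all above the controls, with a change of 0.89 ± 0.24 (95% interval 0.36 to 1.41; edgeR adjusted p = 0.0409). The call was lost in 7 of 8 fits that left out a library, every one but that without 40 mg/L D, with an edgeR adjusted p of up to 0.124. Against 20 mg/L within the run set its change was 0.22 ± 0.24 (edgeR adjusted p = 0.883), and at 10 mg/L against control, also within a run set, it was 0.20 ± 0.24 (edgeR adjusted p = 0.985). Its slope over the steps passed (0.31 ± 0.07; edgeR adjusted p = 0.014), as did that of uroplakin-2-like (0.10 ± 0.03; edgeR adjusted p = 0.0386; lost in 11 of 16 fits that left out a library, but not without control C, 10 mg/L D, 20 mg/L A, or 40 mg/L B or D). These 2 rising slopes stood beside 3.71% of all transcripts, and no member had a falling slope that passed. The 20 and 40 mg/L steps were in another run set than the control and 10 mg/L. The run set therefore cannot be told apart from these slopes. Under TNT the same 2 transcripts had falling slopes.

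Keratin 5 lay wholly above its controls at 40 mg/L, with 1200.0, 1094, 1042 and 1096 CPM beside 735, 850.2, 559 and 380.5 CPM. The change of 0.83 ± 0.30 did not pass in edgeR (95% interval 0.20 to 1.47; adjusted p = 0.125) but did in DESeq2 (adjusted p = 0.0383). At 10 mg/L, in the run set of the controls, it was 0.87 ± 0.30 (edgeR adjusted p = 0.255; DESeq2 adjusted p = 0.043), with libraries from 817 to 1611 CPM. The type II keratins summed to 512 to 1015 CPM in the controls and 1216 to 1389 CPM at 40 mg/L. Keratin 5 alone averaged 631 CPM in the controls and 1108 CPM at 40 mg/L. None of the 5 tested basal epidermis markers outside the members passed. Their rows summed to 108.9 to 155.8 CPM in the controls and 76.8 to 145.8 CPM at 40 mg/L. In these libraries 4 of 12 tested markers listed for secretory cells of skin fell: mucin-2, a mucin-2-like row, mucin-5B-like and anterior gradient protein 2-B. That list summed to 1649 to 1993 CPM in the controls and 824 to 1107 CPM at 40 mg/L. None of 5 tested gut markers passed, with sums of 4733 to 6668 and 4188 to 5162 CPM. Of 6 muscle markers parvalbumin and troponin T rose, by 0.94 and 0.79, and myosin heavy chain 13 fell by 1.33, with list sums of 2406 to 3445 and 3928 to 4825 CPM. Of 3 liver markers fibrinogen beta rose by 0.59, with sums of 4314 to 4863 and 5699 to 7233 CPM. Neither of the 2 tested ionocyte markers passed. The part of these cells in the result was not tested. On the wider epidermal list 1 of 20 tested genes passed, grainyhead-like 3, a transcription factor of skin barrier formation, which rose by 1.04 ± 0.20 at 40 mg/L (edgeR adjusted p = 0.00553), from 22.3 to 45.1 CPM.

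**Figure D4:**
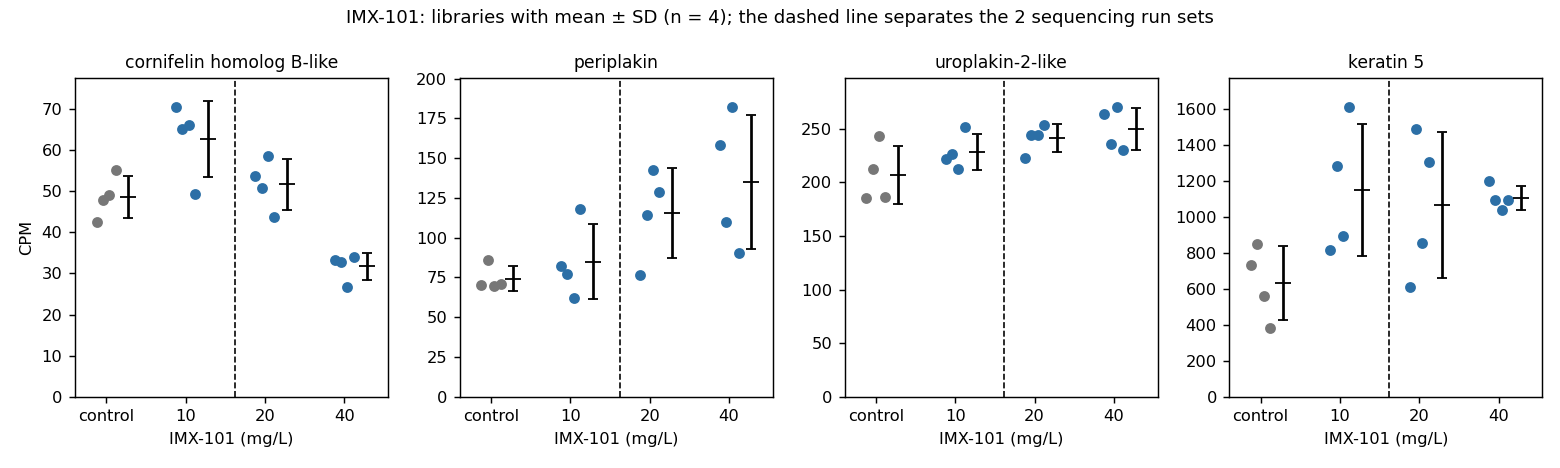
CPM (vertical axis, from 0) of 4 transcripts in the IMX-101 groups (horizontal axis, mg/L); points are libraries, bars mean ± SD (n = 4), and the dashed line separates the 2 sequencing run sets. Cornifelin homolog B-like drops between 20 and 40 mg/L within 1 run set, whereas periplakin at 40 mg/L overlaps its 20 mg/L libraries.

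No desmosome transcript passed in any comparison, but only 4 were tested. Of all transcripts 5.61% fell and 6.37% rose at TNT 3.4 mg/L. The shares were 3.09% and 1.39% at NQ 3750 mg/L, and 3.68% and 3.84% at IMX-101 40 mg/L. At MeNQ 4225 mg/L 0.393% changed in either direction. With 4 transcripts and such shares, the lack of a call cannot be read as particular to desmosomes. The 4 tested transcripts were desmoglein-2-like, plakoglobin, plakophilin-4 X5 and desmoplakin X3. Plakoglobin, the linker shared by desmosomes and adherens junctions, was the most even of them, at 34.1 to 42.2 CPM in the TNT controls and 31.3 to 40.8 CPM at 3.4 mg/L. Its change at the top dose was -0.05 under TNT (95% interval -0.28 to 0.17), 0.08 under NQ (-0.21 to 0.38), -0.07 under MeNQ (-0.34 to 0.20) and -0.23 under IMX-101 (-0.62 to 0.15), where control library A at 96.5 CPM stood far above the other controls at 46.2 to 53.8 CPM. These intervals leave out a fall as large as that of keratin 5 or the type II keratin-like transcript under TNT.

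Desmoglein-2-like, the membrane cadherin, had different signs in different exposures. It held 8.67, 12.1, 13.0 and 12.4 CPM in the NQ controls and 14.2, 20.7, 14.9 and 14.4 CPM at 3750 mg/L, wholly above, with a change of 0.46 (95% interval 0.07 to 0.85; edgeR adjusted p = 0.204). Under IMX-101 40 mg/L it changed by -0.54 (95% interval -0.98 to -0.10; edgeR adjusted p = 0.157), and under MeNQ 4225 mg/L by -0.38 (95% interval -0.82 to 0.05). The MeNQ change minus the NQ change at 36 mmol/L was -0.86 (95% interval -1.41 to -0.31; edgeR adjusted p = 0.136). None of these passed. Desmoplakin X3, the link to keratin, was at 0 in TNT control A and at 45.9 to 58.1 CPM in the other TNT controls, which gave its TNT change of 0.05 a 95% interval of -1.31 to 1.42. Plakophilin-4 X5 changed by -0.04 under TNT (-0.65 to 0.56), and both plakophilin-4 and desmoplakin have a second isoform row with almost no counts, so each level is that of a row rather than surely of a gene.

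**Figure D5:**
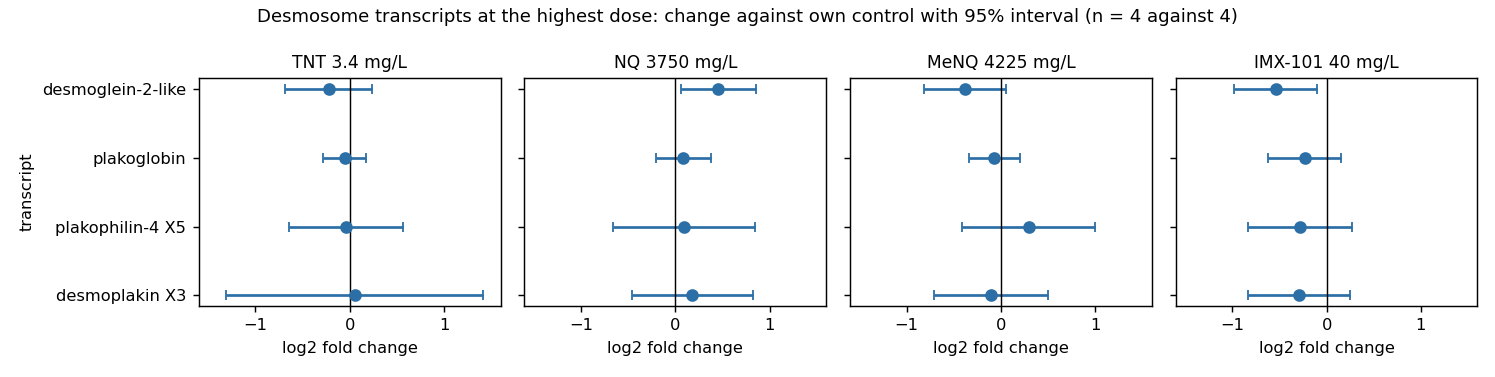
Log2 fold change against the own control (horizontal axis) of the 4 tested desmosome transcripts at the highest dose of each exposure, with the 95% interval of the edgeR fit (bars; n = 4 against 4). Plakoglobin lies close to 0 in TNT, NQ and MeNQ, and desmoplakin X3 has its widest interval under TNT.

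Several other members were scarce. B2 keratin ranged from 0 to 6.02 CPM in the NQ controls, and its top-dose changes of 0.15, -2.22, 1.13 and -0.50 under TNT, NQ, MeNQ and IMX-101 did not pass. Trichoplein, a keratin-binding protein of centrosomes and desmosomes in mammals, was at 0 in at least 1 library of most groups and never passed. Uroplakin-1b, the tetraspanin of the family, changed by 0.53, -1.14, 1.01 and -1.55 at the 4 top doses without passing. Of the tested keratins not yet named, keratin 18-like, keratin 19-like, keratin 15-like, keratin 80-like and the cochleal-like keratin had top-dose changes between -0.55 and 1.69. None passed in the edgeR model of all libraries of an exposure. In edgeR on only the 8 libraries keratin 15-like passed at IMX-101 40 mg/L (1.68, adjusted p = 0.0402). In edgeR with the replicate block keratin 18-like passed at NQ 150 mg/L (-0.69, adjusted p = 0.0434). It also passed there for MeNQ minus NQ at 1.4 mmol/L (0.89, adjusted p = 0.0399).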

How the data were processed

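Libraries were TruSeq Stranded mRNA preparations of pooled whole tadpoles, per the labels' protocols. The authors deposited estimated counts per transcript and sequencing run. The submitters' processing notes name bcl2fastq 1.8.4 and Salmon (no version given in the sources). The library tables hold the average over runs, to within 5.50e-05. Runs were summed per library (2 runs for 62 libraries, 1 for 10) and rounded. The E-value of each closest protein match is as deposited. Each exposure was fitted as one edgeR 4.0.16 quasi-likelihood model (R 4.3.3, filterByExpr, TMM), one mean per dose, with Benjamini-Hochberg adjustment over all transcripts tested, called at 0.05. Slopes used dose steps. NQ and MeNQ shared a model for their differences. SE is the log2 fold change divided by the square root of F. Displayed CPM use TMM-scaled totals of all 72 libraries. Members named singly were those called anywhere, the 6 most abundant, and the 2 with the smallest p at a top dose per role. Members and lists were chosen with earlier results of these data known. The fits were tested on simulated data. Alternatives included DESeq2 1.42.0, no filter, lane and replicate terms and leaving out libraries. The run table has 3 header lines, of which the second matches the sample titles and was used; the first names another dose for 1 run. Sequences were not used here. Libraries of 1674617 to 21656267 counts limit the precision of scarce members.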

Additional observations from a re-analysis of the deposited data

Results flagged for a closer look

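In groups of 4 libraries, a library was marked when its gap to the nearest other library exceeded Dixon's 95% critical share of the group's range. Of 126 combinations of a called member and a group, 6 were marked, and chance marks about 1 in 20. The high libraries were NQ 30 mg/L D for cornifelin homolog B-like (82.71 CPM), TNT 2.3 mg/L A for keratin 47 kDa (201.2 CPM), IMX-101 control B for periplakin (85.84 CPM), NQ control B for uroplakin III (312.0 CPM) and NQ 30 mg/L C for uroplakin-2-like (381.5 CPM). The low library was IMX-101 20 mg/L A for the type II keratin-like transcript (118.4 CPM). Leaving out TNT 2.3 mg/L A, NQ control B or IMX-101 control B in turn changed no direction among the calls described. Some calls were lost, however. Without TNT 2.3 mg/L A, 8 calls held and 1 was lost. Without IMX-101 control B, 2 held and 2 were lost. Without NQ control B, 6 held and 0 were lost.

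Cornifelin homolog B-like also stood out because its change differed between MeNQ and NQ at 36 mmol/L, by 1.3954 on the log2 scale (edgeR adjusted p = 0.0151 for the difference itself).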

How the results depend on the processing

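No call of a member reversed its direction under any alternative run. DESeq2 size factors and the mean of runs kept all 24 calls, while the fit without a low-count filter and the fit with the replicate block each lost 4, the lane term (chosen after seeing the data) lost 3 of 20, log10 dose in place of steps lost 2 of 10, and fits on only the 8 libraries compared lost 7 of 13. The counts of called members moved as follows. DESeq2's Wald test gave 7 at TNT 3.4 mg/L, 4 at TNT 2.3 mg/L, 1 at TNT 1.5 mg/L, 5 at NQ 3750 mg/L, 1 at MeNQ 851 mg/L, and 1, 2 and 4 at IMX-101 10, 20 and 40 mg/L. The share of all transcripts called by DESeq2 or the other alternative fits is not given here. The member counts of those fits therefore cannot be read as a result particular to the members. Without the filter there was 1 each at TNT 2.3 mg/L, IMX-101 40 mg/L and for the IMX-101 slope. The lane term and the 8-library fit each gave 1 at TNT 2.3 mg/L, and the latter 6 at TNT 3.4 mg/L and 1 at NQ 3750 mg/L. Within 1 run set, IMX-101 40 against 20 mg/L (added after seeing the data) gave 1. Leaving out single libraries gave 0 to 3 calls at TNT 2.3 mg/L (0 without control B, 2.3 mg/L C or D), 3 to 5 at TNT 3.4 mg/L (3 without 3.4 mg/L C), 0 to 1 at IMX-101 20 mg/L (1 without control C or 20 mg/L A), and 1 to 2 for both IMX-101 40 mg/L and its slope. The cause of these moves was not tested.

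Libraries share the letters A to D across groups, but no same-letter pair of libraries had deviations correlated above 0.1 (highest 0.0852), so the letters do not pair them. With the letter as a replicate block, 1 member was called at TNT 2.3 mg/L, 1 at NQ 150 mg/L, 1 at IMX-101 40 mg/L, 1 for the IMX-101 slope and 1 for MeNQ minus NQ at 1.4 mmol/L, and 7 at TNT 3.4 mg/L.

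The IMX-101 run set cannot be told apart from its 2 upper doses against control or from its dose slopes. Depth limits members near 0 in single libraries, and whether isoform rows divide the reads of one gene was not tested.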
